A study of Mus musculus with 6 samples.

Results

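The glucocorticoid and fasting responsive regulators described here are 10 genes: Nr3c1, Fkbp5, Tsc22d3, Sgk1, Klf15, Ppargc1a, Cebpb, Foxo1, Irs2 and Igfbp1. They were taken by symbol from the deposited table, from probe sets annotated with 1 gene symbol, and a gene with several such probe sets was read from its brightest one, by the mean of the 6 arrays. All 10 were measured, out of 18820 genes. Liver RNA was profiled on Affymetrix arrays in 2 groups of 2-month-old mice on a C57BL6 background. The first group carried the Pcyt2+/- genotype (4 mice, replicates 1 to 4). The second was wild type (2 mice, replicates 3 and 4). Titles of the first group say knock-out, its genotype is recorded as Pcyt2+/-, and the recorded genotype is used here. Pcyt2 makes CDP-ethanolamine for phosphatidylethanolamine synthesis, and the sources used here state no treatment, sex or feeding state. Each mouse had its own array, so precision is limited by having 4 and 2 arrays.

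In the fasted liver, glucagon raises cAMP and the adrenal gland releases glucocorticoid hormone. The hormone binds the glucocorticoid receptor, which enters the nucleus and switches on genes of amino acid breakdown and glucose production, while cAMP acts through the factor CREB. Insulin after a meal opposes glucose production, in part by sending FOXO factors out of the nucleus. Transcripts of the 10 genes are commonly read as signs of feeding or stress state in liver, and the comparison of Pcyt2+/- with wild type livers is described here in that setting.

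Short stretches of promoter are shown for the first 4 members with a match to the letters searched, in an order of members set by hand, so that the letters these signals are known to act through can be seen; Irs2 and Tsc22d3 also held matches and are not printed. The sequences are RefSeq promoter windows of build GRCm38.p6, from 250 bases before to 50 bases after an annotated start, and each is printed 5′ to 3′ on the strand of the gene with the match in capitals. Igfbp1 holds the insulin response core CAAAACA, a sequence bound by FOXO factors. Ppargc1a, Klf15 and Cebpb hold the short CREB site TGACG, which reads CGTCA where it lies on the other strand. Sgk1 holds a full glucocorticoid receptor palindrome, AGAACA and its reverse complement with 3 bases between, and was added to the others after the matches were seen.
Igfbp1, chr11:7197639-7197725, plus strand: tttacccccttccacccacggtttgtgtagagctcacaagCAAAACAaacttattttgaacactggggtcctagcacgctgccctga
Ppargc1a, chr5:51567730-51567814, minus strand: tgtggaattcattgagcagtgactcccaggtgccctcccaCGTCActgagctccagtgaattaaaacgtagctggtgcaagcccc
Klf15, chr6:90462458-90462614, plus strand: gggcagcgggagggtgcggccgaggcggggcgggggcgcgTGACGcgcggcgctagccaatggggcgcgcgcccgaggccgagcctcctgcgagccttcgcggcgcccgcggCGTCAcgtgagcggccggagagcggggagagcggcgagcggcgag
Cebpb, chr2:167688695-167688952, plus strand: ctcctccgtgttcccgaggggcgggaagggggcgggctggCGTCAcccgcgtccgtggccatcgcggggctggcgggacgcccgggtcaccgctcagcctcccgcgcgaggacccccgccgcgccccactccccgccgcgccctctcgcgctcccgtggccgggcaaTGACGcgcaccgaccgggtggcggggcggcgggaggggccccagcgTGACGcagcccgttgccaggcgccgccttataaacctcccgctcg
Sgk1, chr10:21993661-21993755, plus strand: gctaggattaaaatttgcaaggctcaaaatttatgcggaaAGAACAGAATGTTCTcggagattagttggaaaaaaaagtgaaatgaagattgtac

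The palindrome lay in 3 of 32851 promoter windows of the genome, or 0.00913%, and 1 of the 3 was the Sgk1 window. It starts at position -189 from the start site, which is 1 of 6 start sites listed for Sgk1. The 9 members searched had 16 windows, as some have several start sites. The single receptor site AGAACA, which the palindrome contains on both strands, was in 19.0% of all windows. It was in 4 of the 16 member windows, from 2 of the 9 members, Sgk1 and Tsc22d3. The short CREB site was in 20.8% of all windows and in 5 of the 16 member windows. These came from 5 of the 9 members (Cebpb, Ppargc1a, Klf15, Sgk1 and Tsc22d3). The insulin response core was in 6.28% of all windows and in 2 of the 16 member windows, from Igfbp1, at position -108, and Irs2. The full CREB site TGACGTCA (1.79% of all windows), the FOXO site GTAAACA (3.65%) and the C/EBP palindrome TTGCGCAA (0.183%) matched no window of a member. The C/EBP site TTGCNNAA, which includes that palindrome, was in 10.8% of all windows and in 1 window of Sgk1. Both strands were searched for every motif. No window of Nr3c1 was used here. A match is a run of letters, and the arrays measured transcripts, not binding to it.

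All 10 members were dim, as most probe sets were. Their means over the 6 arrays ran from 4.33 to 4.89 on the log2 scale, while 94.5% of the 28996 probe sets had a mean of 5 or less. On such a scale a change in transcript can give a small change in the log2 value, and a difference below is a difference of deposited log2 values, not a fold change of RNA. The array medians were 4.40, and the means of Tsc22d3 (4.325), Ppargc1a (4.334), Sgk1 (4.347) and Nr3c1 (4.377) were below that level. Whether the probe sets of these members held signal above background was not tested. The tissue label held in the marker genes. The 7 hepatocyte markers had means from 7.44 to 12.29, and the average over them was 9.94 to 10.04 in Pcyt2+/- livers against 10.12 and 10.18 in wild type livers. Of 30 measured markers of Kupffer, stellate, endothelial, bile duct, blood and fat cells, 1 had a mean above 5 (Dcn, a stellate cell proteoglycan, at 5.08) and limma gave 0 of them an unadjusted p below 0.05. In whole liver, fewer cells of a type and less RNA per cell cannot be told apart. Pcyt2 itself had values of 4.638, 4.657, 4.669 and 4.604 in Pcyt2+/- livers, against 4.887 and 4.796 in wild type livers, a difference of -0.20 (SE 0.028) with an adjusted p of 0.264 by limma. All 4 Pcyt2+/- arrays were below both wild type arrays, and whether the probes lie in the deleted stretch was not stated. The size of a dim gene's difference depended on the scale. With the median signal of each array taken off before the log, which removes the shared floor, the Pcyt2 difference was -0.97 (limma adjusted p = 0.0671 over 3248 genes).

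No member passed the test. Differences are Pcyt2+/- minus wild type and were tested with limma, with Benjamini-Hochberg adjustment over all 18820 genes. At an adjusted p under 0.05 limma called 0 of the 10 members, as it called 0% of all genes. The members' adjusted p ran from 0.646 to 0.995. At an unadjusted p under 0.05, 2 members were lower (Klf15 and Ppargc1a) and 1 was higher (Foxo1), where 3.44% of all genes were lower and 1.86% were higher at that threshold. All 4 Pcyt2+/- values lay below both wild type values for 3 members (Klf15, Sgk1 and Ppargc1a) and above both for 1 (Foxo1), against 7.17% and 5.67% of all genes. The mean was lower in Pcyt2+/- for 9 of the 10, against 51.7% of all genes, and the median difference was -0.022, against -0.00073 over all genes and -0.00049 over the 18028 genes with a mean of 5 or less. The members were chosen with earlier results of these data known, so these counts describe the 10 genes and are no independent support.

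**Figure D1:**
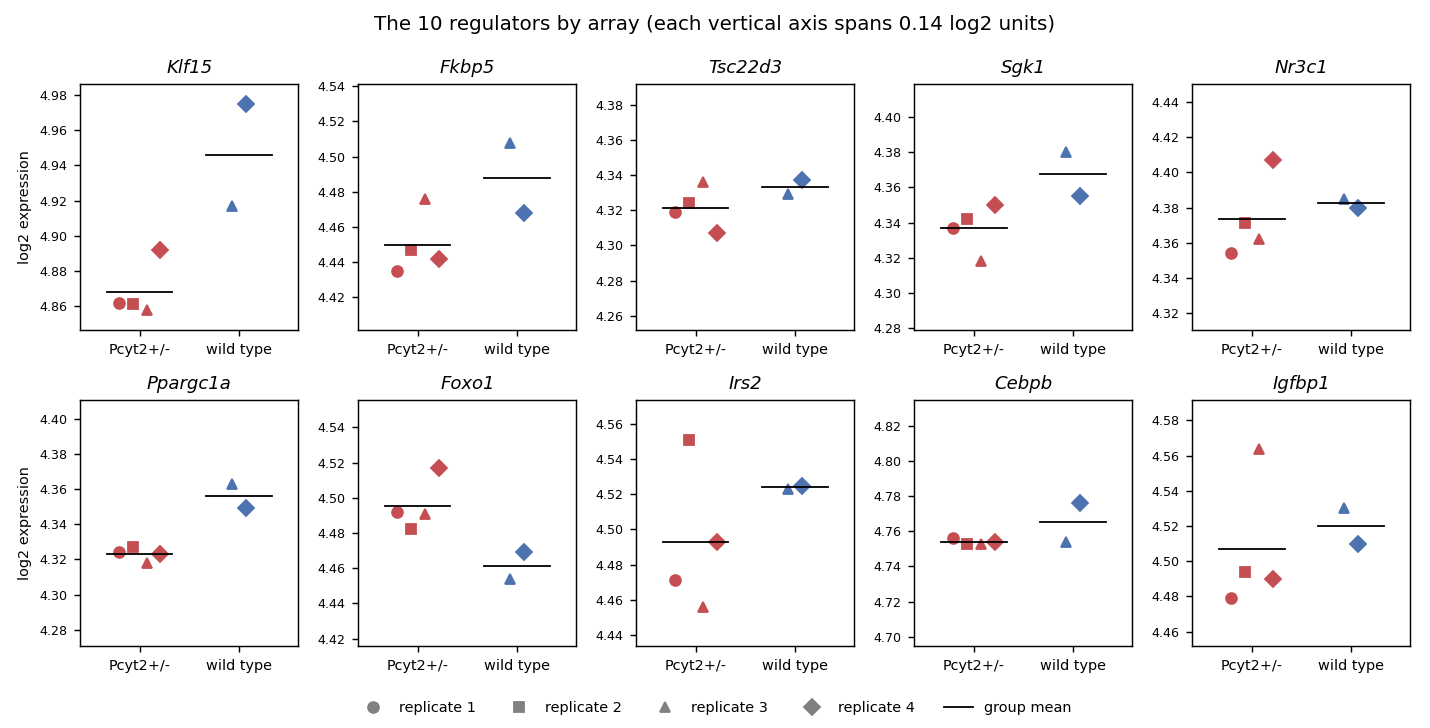
Deposited log2 expression of each of the 10 regulators on the 6 arrays, with Pcyt2+/- livers at left (4 arrays) and wild type livers at right (2 arrays). Each point is 1 mouse, its shape gives the replicate number and the bar is the group mean, and every panel spans 0.14 log2 units. The groups stand apart in the panels of Klf15, Sgk1 and Ppargc1a (Pcyt2+/- lower) and Foxo1 (Pcyt2+/- higher), and overlap in the other 6.

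The glucocorticoid receptor gene, Nr3c1, overlapped between the groups. Its log2 values were 4.354, 4.371, 4.362 and 4.407 in Pcyt2+/- livers, against 4.385 and 4.380 in wild type livers. Replicate 4 of the Pcyt2+/- group was the highest of all 6 arrays and the other 3 Pcyt2+/- arrays were below both wild type arrays. The difference was -0.0085 with a 95% interval of -0.047 to 0.030, and its two-sided exact permutation p over the 15 splits of the arrays was 0.667. Without Pcyt2+/- replicate 1 the difference was -0.0021. In a 4 against 2 design the smallest p of this test is 0.0667, so it cannot reach 0.05 for any gene.

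Fkbp5 encodes a co-chaperone that lowers the hormone affinity of the receptor and is itself switched on by it. Its values were 4.435, 4.447, 4.476 and 4.442 in Pcyt2+/- livers, against 4.508 and 4.468 in wild type livers. Pcyt2+/- replicate 3 lay above wild type replicate 4, so the groups overlapped, with a difference of -0.038 (interval -0.077 to 0.0014, exact permutation p = 0.133). It was -0.018 without wild type replicate 3 and -0.058 without wild type replicate 4. Tsc22d3, also known as GILZ, is a leucine zipper protein that mediates anti-inflammatory effects of glucocorticoids. It had 4.319, 4.324, 4.336 and 4.307 in Pcyt2+/- livers, against 4.329 and 4.337 in wild type livers. The groups overlapped here too, with a difference of -0.011 (exact permutation p = 0.267) that was -0.0065 without Pcyt2+/- replicate 4.

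Sgk1 encodes a serum and glucocorticoid induced kinase, the gene with the palindrome printed above. Its values were 4.337, 4.342, 4.318 and 4.350 in Pcyt2+/- livers, against 4.380 and 4.355 in wild type livers. All 4 Pcyt2+/- arrays were below both wild type arrays, the nearest pair being Pcyt2+/- replicate 4 and wild type replicate 4. The difference was -0.031 with an SE of 0.013 (limma adjusted p = 0.936, exact permutation p = 0.0667), and -0.019 without wild type replicate 3.

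Klf15, a zinc finger factor that acts on genes of amino acid breakdown and glucose production, had the largest absolute difference of the 10. Its values were 4.862, 4.861, 4.858 and 4.892 in Pcyt2+/- livers, against 4.917 and 4.975 in wild type livers. The groups did not overlap, 3 of the Pcyt2+/- arrays were close together, and Pcyt2+/- replicate 4 stood above them. Pcyt2+/- livers averaged 4.868 ± 0.016 (SD, n = 4) and wild type livers 4.946 ± 0.041 (SD, n = 2), a difference of -0.077 (SE 0.018, 95% interval -0.12 to -0.033). Limma gave it an adjusted p of 0.646 over all genes, and the exact permutation p was 0.0667. Without wild type replicate 4 the difference was -0.049, and without wild type replicate 3 it was -0.11. With the array median taken off before the log, as for Pcyt2, the log2 values were 3.00, 2.99, 2.97 and 3.10 in Pcyt2+/- livers, against 3.18 and 3.37 in wild type livers. On that scale the difference was -0.26 with an SE of 0.095, and limma's adjusted p was 0.534 over 3248 genes.

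Ppargc1a encodes PGC-1alpha, a coactivator that CREB switches on in fasting and that drives glucose production and mitochondrial genes. Its values were 4.324, 4.327, 4.318 and 4.323 in Pcyt2+/- livers, against 4.363 and 4.349 in wild type livers. The 4 Pcyt2+/- arrays lay within a narrow range below both wild type arrays, and the difference was -0.033 (SE 0.0098, limma adjusted p = 0.796, exact permutation p = 0.0667). A second probe set of the gene gave the other direction. It had 4.205, 4.229, 4.213 and 4.203 in Pcyt2+/- livers, against 4.201 and 4.201 in wild type livers, a difference of 0.011 (limma adjusted p = 0.967 over every row of the table). The direction for Ppargc1a thus depended on the probe set, and the mean of both gave -0.011.

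Cebpb, a bZIP factor that binds promoters of glucose production genes, overlapped between the groups and had nearly equal values on 5 of the 6 arrays. It had 4.756, 4.753, 4.753 and 4.754 in Pcyt2+/- livers, against 4.754 and 4.776 in wild type livers. The difference of -0.011 (exact permutation p = 0.2) came to 0 without wild type replicate 4, and it was 0.00035 after quantile normalization. With the array median taken off before the log it was -0.052 (limma adjusted p = 0.94), and Klf15 and Cebpb were the only members with a mean above 4.6, the level that setting required.

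Foxo1, the forkhead factor that insulin sends out of the nucleus, was the 1 member with a higher mean in Pcyt2+/- livers. Its values were 4.492, 4.482, 4.491 and 4.517 in Pcyt2+/- livers, against 4.454 and 4.469 in wild type livers. All 4 Pcyt2+/- arrays were above both wild type arrays, and the difference was 0.034 (SE 0.013, 95% interval 0.0039 to 0.064). Limma's adjusted p was 0.909, its exact permutation p was 0.0667, and it ran from 0.027 to 0.042 with 1 array left out at a time. The array measures transcript, and where the FOXO1 protein was located was not measured.

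Irs2 encodes the docking protein through which the insulin receptor signals in liver and is a FOXO target that is high in fasting. It had 4.471, 4.551, 4.456 and 4.493 in Pcyt2+/- livers, against 4.523 and 4.525 in wild type livers. The highest and the lowest of the 6 arrays were both Pcyt2+/- (replicates 2 and 3), and this was the widest range of any member except Klf15, at 0.095. The difference was -0.032 (95% interval -0.092 to 0.029, exact permutation p = 0.4), and -0.051 without Pcyt2+/- replicate 2. Igfbp1 encodes a secreted IGF-binding protein whose gene insulin represses through the core sequence printed above. It had 4.479, 4.494, 4.564 and 4.490 in Pcyt2+/- livers, against 4.530 and 4.510 in wild type livers. Pcyt2+/- replicate 3 was the highest array and the other 3 Pcyt2+/- arrays were the lowest, with a difference of -0.013 (95% interval -0.071 to 0.045, exact permutation p = 0.8) that was -0.032 without Pcyt2+/- replicate 3 and -0.0027 without wild type replicate 3.

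**Figure D2:**
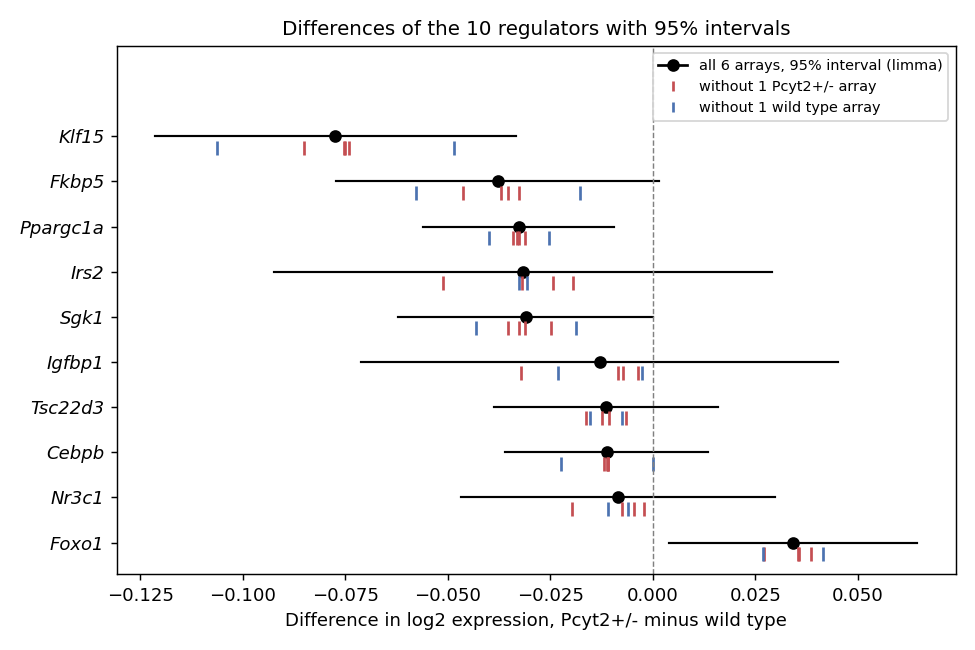
Difference in deposited log2 expression, Pcyt2+/- minus wild type, for the 10 regulators, with limma's 95% interval as a line. Ticks under each line give the difference with 1 Pcyt2+/- array (red) or 1 wild type array (blue) left out. The intervals of Klf15 and Ppargc1a lie below 0 and that of Foxo1 above 0 before adjustment over all genes, and the outermost ticks on both sides are those without a wild type array for Klf15, Fkbp5, Ppargc1a, Sgk1, Cebpb and Foxo1.

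Within the groups, the members varied in different ways from array to array. Each mouse had its own array, so differences between mice and array noise cannot be told apart. After the group means were taken away, Pearson r between pairs of members over the 6 arrays ran from -0.86 (Tsc22d3 and Sgk1) to 0.86 (Fkbp5 and Igfbp1), with a median of -0.18 and 18 of 45 pairs above 0. These values share the same 6 arrays and describe them only. The lowest array was a Pcyt2+/- array for 9 of the 10 members, with replicate 3 lowest for 4 of them and replicate 1 for 3. As 4 of the 6 arrays were Pcyt2+/-, the lowest array can be expected there more often. That share over all genes is not given here. The highest array was wild type for 6 of the 10, shared evenly by replicates 3 and 4. Of all genes, 20.1% were highest on wild type replicate 3 and 15.5% on wild type replicate 4.

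Known targets of the glucocorticoid receptor, outside the 10 members, held larger differences, the largest of them among genes with a mean above 5. Of 25 measured of 26 listed, 0 were called by limma in either direction. At an unadjusted p under 0.05, 6 were lower and 0 were higher (24.0% lower, against 14.6% of the 792 genes with a mean above 5 and 3.44% of all genes). The mean was lower in Pcyt2+/- for 19, or 76.0%, against 51.7% of all genes. That share was 62.2% of genes with a mean above 5, of which this list holds 8. The median difference of the list was -0.057. The hepatocyte marker average given above was also lower in every Pcyt2+/- liver, and 6 of its 7 genes had a lower mean. Its larger differences were those of Cps1 (-0.56), Hnf4a (-0.25), also in the list of fasting genes below, and Apob (-0.17). Alb differed by -0.042, Apoa1 by -0.036, Ttr by -0.060 and Serpina1b by 0.012. The part of the marker average in the values of the receptor targets was not tested. Tat, which begins tyrosine breakdown and is a classic glucocorticoid target, had 7.342, 7.253, 7.605 and 7.043 in Pcyt2+/- livers, against 8.580 and 8.297 in wild type livers. Every Pcyt2+/- array was lower by more than the spread within either group, with a difference of -1.13 (SE 0.15, limma adjusted p = 0.219). Mt2, a metallothionein that glucocorticoids and zinc induce, had 5.164, 6.073, 5.297 and 5.269 in Pcyt2+/- livers, against 6.616 and 6.419 in wild type livers. Pcyt2+/- replicate 2 stood near the wild type arrays, and the difference on all 6 arrays was -1.07 (limma adjusted p = 0.607). Without that array, the one nearest to wild type, it was -1.27 and passed limma (adjusted p = 0.0167). Without Pcyt2+/- replicate 1, 3 or 4 in its place, limma's adjusted p was 0.742 to 0.985. Without wild type replicate 3 limma called 1 gene of the list, Lpin1, a lipin named here after its values were seen. Got1, the cytosolic aspartate aminotransferase, differed by -0.67 (-0.43 without wild type replicate 4). With the array median taken off, the difference was -1.69 for Got1 (limma adjusted p = 0.199), -1.71 for Mt2 (0.326) and -1.25 for Tat (0.0671). Nfkbia, the inhibitor of NF-kappaB, differed by -0.061 on the deposited scale. Per1, a clock gene that the receptor switches on, differed by -0.038, and Dusp1, a phosphatase that ends MAP kinase signals, by 0.019 (0.0031 without Pcyt2+/- replicate 4), both with means of 5 or less.

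Of the genes of glucose production and fasting, most had a lower mean. Of 23 measured of 26, limma called 0, an unadjusted p under 0.05 was found for 2 on the lower side and 0 on the higher, 18 had a lower mean, and the median difference was -0.024. The unadjusted share of 8.7% lower compares with 3.44% of all genes. It compares with 2.95% of genes with a mean of 5 or less and 14.6% of those above 5, of which this list holds 9. The share of 78.3% with a lower mean compares with 51.7% of all genes. It was 51.3% of genes with a mean of 5 or less and 62.2% of those above 5. All 4 Pcyt2+/- values lay below both wild type values for 34.8% of the list, against 7.17% of all genes. That share was 6.82% of genes with a mean of 5 or less and 15.3% of those above 5. For 0 genes of the list all 4 lay above both. The list was chosen with earlier results of these data known, so these shares describe it and were not tested. Pck1, G6pc and Pdk4 stand in this list and in that of the receptor targets. Pck1, the phosphoenolpyruvate carboxykinase, had 6.973, 7.478, 8.219 and 7.837 in Pcyt2+/- livers, against 8.295 and 8.400 in wild type livers. The Pcyt2+/- arrays were spread widely, from well below the wild type arrays to just under them, and none overlapped them, with a difference of -0.72 (limma adjusted p = 0.936, exact permutation p = 0.133). G6pc, the glucose-6-phosphatase, overlapped between the groups, with 7.309, 7.617, 7.575 and 6.727 in Pcyt2+/- livers and 7.569 and 7.910 in wild type livers. Its difference was -0.43, or -0.24 without Pcyt2+/- replicate 4 and -0.26 without wild type replicate 4. Pck1 was lowest in Pcyt2+/- replicate 1 and G6pc in Pcyt2+/- replicate 4, so the low arrays of these enzymes were not the same mouse. Slc37a4, the glucose-6-phosphate transporter, differed by -0.21 (limma adjusted p = 0.13), or by -1.08 with the array median taken off (0.0671). Cpt1a, which brings fatty acids into mitochondria, differed by -0.20 and Trib1, a pseudokinase, by -0.037 (-0.023 without wild type replicate 3). Creb3l3, a fasting-induced factor of the liver, had -0.049 and Fgf21, a fasting hormone, 0.011, and both changed sign when 1 wild type array was left out (0.040 for Creb3l3 without replicate 4, -0.00073 for Fgf21 without replicate 3).

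**Figure D3:**
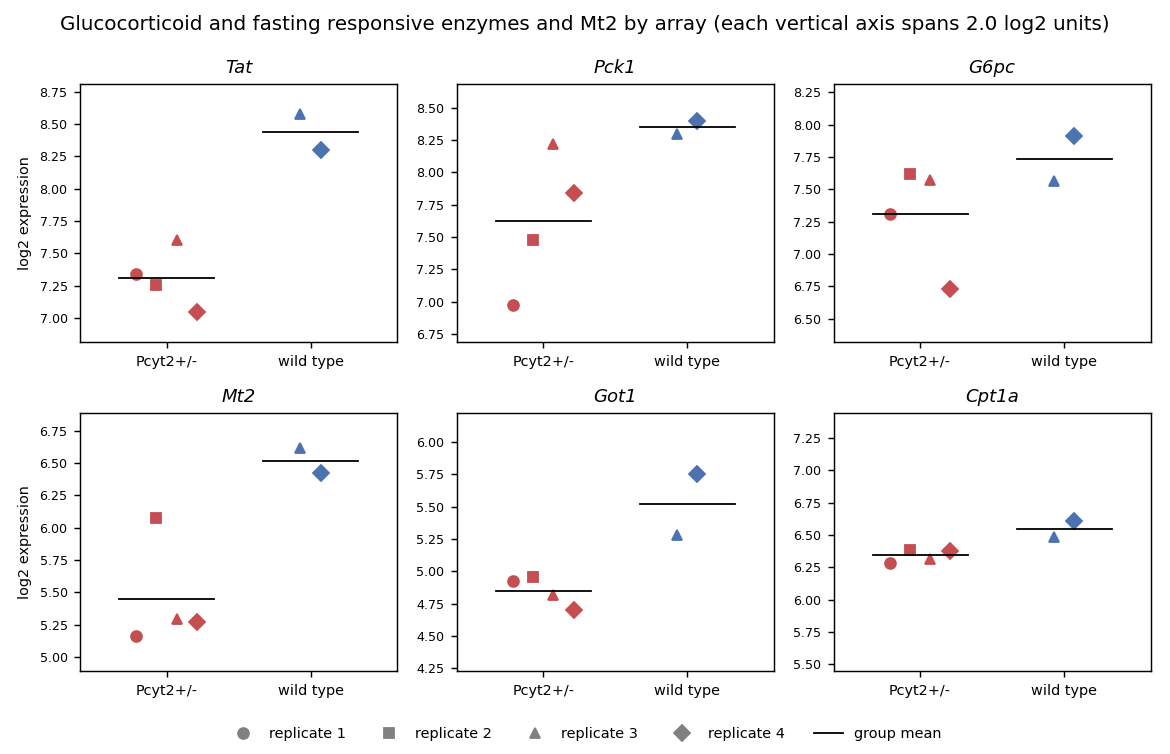
Deposited log2 expression of 6 glucocorticoid or fasting responsive genes on the 6 arrays, Pcyt2+/- livers at left (4 arrays) and wild type livers at right (2 arrays), with the bar at the group mean and every panel spanning 2.0 log2 units. All 4 Pcyt2+/- points lie below both wild type points for Tat, Pck1, Mt2, Got1 and Cpt1a, and the groups overlap for G6pc.

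Differences of insulin signalling genes were small. Of 22 measured of 26, limma called 0, no gene reached an unadjusted p under 0.05, differences ran from -0.017 to 0.015, and the median was -0.0026. The smallest p belonged to Rictor, a subunit of the second mTOR complex (-0.017), Foxo4, a forkhead relative of Foxo1 (0.012), and Tsc1 and Tsc2, which together restrain the first mTOR complex (-0.016 and 0.011). These values were -0.010 for Rictor without wild type replicate 4, -0.0081 for Tsc1 without wild type replicate 3 and 0.0057 for Tsc2 without Pcyt2+/- replicate 1. Insr, the insulin receptor, had -0.014 (0.015 without wild type replicate 3). All but 1 of these 22 genes had a mean of 5 or less.

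Partners of the receptor and enzymes of hormone supply were 13 of 16 listed. Limma called 0, and 2 were on the lower side with an unadjusted p under 0.05 against 0 on the higher. That is 15.4% lower, beside 3.44% of all genes. The share was 2.95% of genes with a mean of 5 or less and 14.6% of those above 5, of which the list holds 4. Of the 13, 9 had a lower mean (69.2%, against 51.7% of all genes), and the median was -0.0083. Hspa8, a constitutive chaperone that helps the receptor fold, had 8.135, 7.771, 8.201 and 8.117 in Pcyt2+/- livers, against 8.312 and 9.074 in wild type livers. Wild type replicate 4 stood well above the other arrays, and the difference of -0.64 was -0.26 without it. Stip1, which links HSP70 and HSP90, had -0.049 (-0.019 without wild type replicate 4), and Hsp90aa1, an HSP90 chaperone, had -0.044 (0.044 without wild type replicate 4). Hsd11b1, which makes active hormone inside the hepatocyte, had 5.040, 5.055, 4.999 and 4.982 in Pcyt2+/- livers, against 5.006 and 5.082 in wild type livers. The groups overlapped, the difference was -0.025, and it was 0.013 without wild type replicate 4. H6pd, which supplies the cofactor of that enzyme, differed by 0.11 (-0.039 without wild type replicate 3, and 0.28 with the array median taken off).

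Relatives of the members, all 33 measured, were split evenly, with 16 lower and 17 higher means, a median of 0.00049 and 0 called by limma. At an unadjusted p under 0.05 there were 1 lower, Cebpa, the C/EBP factor of the mature hepatocyte (-0.082), and 1 higher, Klf3, a repressor of the Klf family (0.035). For Klf3 the mean of its probe sets gave 0.018 (limma adjusted p = 0.953). Of the other Klf genes, Klf13 differed by -0.039 and Klf4 by -0.026 (-0.011 without wild type replicate 4). Klf9, itself a glucocorticoid target, had 4.820, 4.851, 4.826 and 4.832 in Pcyt2+/- livers, against 4.827 and 5.067 in wild type livers. Only wild type replicate 4 stood apart for Klf9: the difference of -0.12 was 0.0051 without that array, and -0.24 without wild type replicate 3, where it passed limma (adjusted p = 0.0313). With the array median taken off, the differences were -0.37 for Klf9, 0.18 for Klf3, -0.25 for Cebpa and -0.21 for Klf13, none of them called, and the mean of its probe sets gave -0.061 for Klf9. Igfbp2, another IGF-binding protein of the liver, differed by 0.059 (-0.059 without Pcyt2+/- replicate 2).

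Immediate early and stress genes, some of which rise within minutes of handling or injury, all had means of 5 or less. Of 19 measured of 22, limma called 0, an unadjusted p under 0.05 was found for 1 on the lower side and 0 on the higher, 12 had a lower mean, and the median was -0.009. That is 5.26% on the lower side, beside 2.95% of genes with a mean of 5 or less. The share with a lower mean was 63.2%, beside 51.3% of those genes. The 1 lower was Zfp36, which destabilises cytokine transcripts (-0.046), while Gadd45g, a growth arrest gene, had 0.053, Ier2 had -0.026 (-0.0066 without wild type replicate 3), and Fos, a subunit of AP-1, had -0.022. Clock genes, whose level follows the time of day, were measured for 15 of 18, of which 0 were called by limma. Of the 15, 9 had a lower mean (60.0%, beside 51.3% of genes with a mean of 5 or less), with a median of -0.013. Arntl, which encodes BMAL1, was the 1 gene there with an unadjusted p under 0.05 and was higher (0.030). Npas2, a partner of BMAL1 that is related to CLOCK, had 0.034 and Tef, a clock output factor, -0.035 (-0.015 without wild type replicate 3). Dbp was not analysed here. The sources used here give no time of collection, and its part in any of these values was not tested.

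**Figure D4:**
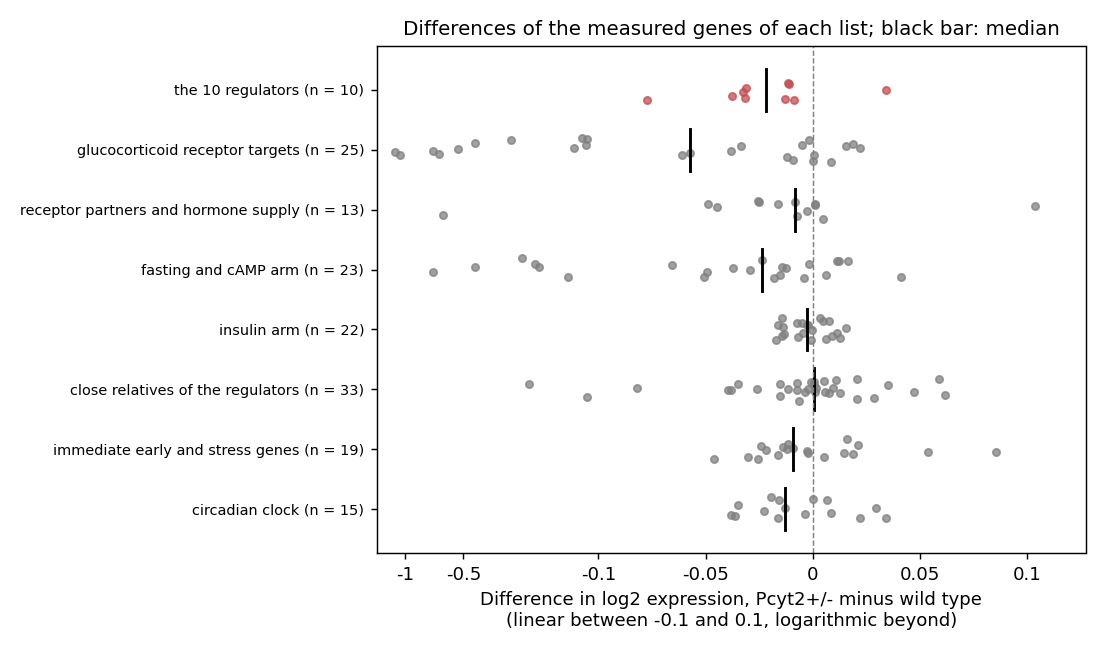
Differences in deposited log2 expression, Pcyt2+/- minus wild type, for the measured genes of the 10 regulators (red) and of 7 related gene lists (gray), 1 point per gene, on an axis that is linear between -0.1 and 0.1 and logarithmic beyond. The black bar is the median of each list, at -0.022 for the regulators, -0.057 for the receptor targets and -0.0026 for the insulin arm. Differences beyond -0.1 belong to the lists of targets, partners, fasting genes and relatives.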

How the data were processed

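Total RNA from liver snap-frozen in liquid nitrogen was labelled with biotin from 100 ng of RNA per array, per the labels. Each probe set has a deposited log2 value, which the authors obtained by RMA (named, without a version, in the submitters' processing notes). The build behind the probe sets is not given in the sources used here. There is no depth for arrays, and the array medians were equal (4.40). Of 28996 probe sets, 21218 had 1 gene symbol in the platform annotation (1881 had several, 5897 were unnamed here), and 21185 of these matched RefSeq (GRCm38.p6) by gene identifier, with 0 symbols changed. For the 1386 genes with several, the probe set of highest mean was used.

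Differences were fitted with limma 3.58.1 in R 4.3.3 (lmFit, eBayes with the default prior, two-sided, no covariate) on all 6 arrays and adjusted over 18820 genes. The step was tested on simulated data with differences larger than those of the members, so recovery at their sizes was not tested. For single genes an exact permutation test (two-sided, 15 splits) was added. The labels say that each sample is a separate mouse. Replicate numbers 3 and 4 occur in both groups, and nothing in the labels ties mice of the same number.

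The members, lists, motifs and the naming rule were chosen with earlier results of these data known. The rule named the members, Pcyt2, up to 4 genes of smallest p per list and a fixed set of well-known genes, 47 in all. Alternatives were a filter on dim genes, the mean of a gene's probe sets, every row of the table, quantile normalization, subtraction of the array median (values under 1 set to 1), a trended and robust prior, the replicate number as a block, and each array left out in turn. Other steps used Python 3.11.15, with pandas 2.3.3 and numpy 2.4.6, and figures used matplotlib 3.10.9.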

Additional observations from a re-analysis of the deposited data

Results flagged for a closer look

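Of 47 named genes, 6 had 1 of the 4 Pcyt2+/- arrays far from the other 3, where the gap to the nearest array divided by the range of the group was above Dixon's 95% critical value for 4 samples. Chance flags about 1 in 20 such groups, and wild type, with 2 arrays, could not be tested. The only member of the regulators among them was Klf15, which was higher in Pcyt2+/- replicate 4 (4.892, against 4.858 to 4.862 on the other 3, ratio 0.882). Replicate 4 was also low for Per1 (4.307, ratio 0.855) and for Creb3l3 (5.076, ratio 0.831). Mt2 was high in Pcyt2+/- replicate 2 (6.073, ratio 0.854), Stip1 was high in replicate 1 (4.427, ratio 0.848) and Ier2 was low in replicate 3 (4.351, ratio 0.889). Among the flagged genes each of the 4 Pcyt2+/- arrays stood out for at least 1.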

How the results depend on the processing

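No member was called in any alternative run that held it. The filter on a mean above 5 left out all members, and subtraction of the array median left out all but Klf15 and Cebpb. Of the 10, 8 had a lower mean after quantile normalization and 7 with the replicate block. Signs turned for Cebpb after quantile normalization (0.00035), for the second probe set of Ppargc1a (0.011), and, with the replicate block, for Nr3c1 (0.0024), Igfbp1 (0.0073) and Igfbp2 (-0.097). The replicate block called 2 genes in all, 0 of them members. The numbers are shared by 2 pairs that nothing in the labels ties. Same-numbered arrays correlated at 0.15 (number 3) and 0.07 (number 4) in their deviations from the group means. Pcyt2+/- replicate 1 and wild type replicate 4, of different numbers, correlated at 0.19. With 2 wild type arrays their deviations mirror each other, so these values cannot show whether mice were paired. Over all genes, where the count was 0 as deposited (an unadjusted p under 0.05 was found for 648 on the lower and 350 on the higher side), limma called 3 among genes with a mean above 5, 3 with the array median subtracted, 9 with a trended and robust prior (Tat and Slc37a4 among them), and 0 to 9 with 1 array left out (9 without wild type replicate 3). With 1 array left out, 0 to 1 of the receptor targets and 0 to 1 of the relatives were called, and signs turned within the ranges of H6pd (-0.039 to 0.26), Hsp90aa1 (-0.13 to 0.044), Hsd11b1 (-0.063 to 0.013), Insr (-0.044 to 0.015), Creb3l3 (-0.14 to 0.040), Klf9 (-0.24 to 0.0051), Igfbp2 (-0.059 to 0.13) and Fgf21 (-0.00073 to 0.024). The cause of these turns was not tested. For 8 of the 10 members the difference was over 1.5 times smaller with some 1 array left out, Ppargc1a and Foxo1 being the exceptions. A fit that leaves 1 wild type array assumes that it varies like the Pcyt2+/- arrays. Signals of all members near the floor of the array limit what could be seen.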

Other observations

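For some targets of the glucocorticoid receptor the difference was much smaller without 1 wild type liver. Lpin1, a phosphatidate phosphatase and coactivator that glucocorticoids and fasting induce, had 4.441, 4.487, 4.478 and 4.450 in Pcyt2+/- livers, against 4.476 and 5.021 in wild type livers. Only wild type replicate 4 stood apart, and the difference of -0.28 was -0.011 without it. With wild type replicate 3 left out in its place, the difference was -0.56 and limma gave an adjusted p of 0.00251. Tdo2, which begins tryptophan breakdown, had 7.068, 6.844, 6.813 and 7.030 in Pcyt2+/- livers, against 7.075 and 7.863 in wild type livers, and its difference of -0.53 was -0.14 without wild type replicate 4. Both genes were chosen after their values were seen. Wild type replicate 4 was the highest of the 6 arrays for 10 of 25 receptor targets, 10 of 23 fasting genes and 6 of 13 receptor partners, 3 of the 10 regulators, 8 of 33 relatives, 4 of 22 insulin signalling genes, 2 of 19 immediate early genes and 2 of 15 clock genes. It was the highest array for 15.5% of all genes and for 27.5% of genes with a mean above 5. These shares describe 1 array, and were not tested.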
